A study of Homo sapiens
Mus musculus and Homo sapiens with 21 samples.

Results

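Replication and mitosis genes were followed in human cancer cells that grew in mouse brain, under mouse skin or in culture. The set held 40 genes, matched by symbol among the 34058 human genes of the table, and all 40 were found and passed the filter on low values. It was divided here by role into 25 mitotic genes, 10 replication genes (MCM, PCNA, RRM and GINS) and 5 genes of the step from G1 into S phase (G1/S). The cells were H2030-BrM3, a brain-seeking derivative of the human lung adenocarcinoma line H2030, and every sample with cancer cells held this line alone.

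RNA came from macrodissected metastases of forebrain (FBMet, 3 libraries) and hindbrain (HBMet, 3 libraries) after injection of the cells into the heart, from subcutaneous tumours injected with 50% Matrigel low in growth factors (SQ, 4 libraries), and from monolayer culture left undisturbed for at least 3 days (2D, 3 libraries). The hosts were athymic nu/nu mice aged 5 to 6 weeks at injection, which lack a normal thymus and most T cells. Tumour-free forebrain (FB) and hindbrain (HB) gave 4 libraries each and served here to measure misassigned reads and host levels. Mice of these libraries were likewise recorded with an age of 5 to 6 weeks. Dissected tissue included surrounding stroma, so human reads reported on the cancer cells and mouse reads on the host. The labels do not say whether replicates came from separate animals or cultures, so p values measure only the spread between these libraries.

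DNA replication starts from origins that are licensed in G1, when CDC6 and CDT1 load the MCM helicase onto DNA. In S phase the helicase is activated with the GINS complex, PCNA clamps the polymerases to DNA, and ribonucleotide reductase (RRM1 and RRM2) and thymidylate synthase (TYMS) supply nucleotides. Mitosis needs cyclin B with CDK1, the aurora and polo kinases, kinesin motors, the kinetochore and the spindle checkpoint. Transcripts of both classes are held down in resting cells and are induced in cycling ones, the G1/S and replication genes mainly through E2F factors and the mitotic genes later, through the MuvB complex with B-MYB and FOXM1. They are therefore widely used as a readout of proliferation in tumours.

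The human libraries held 3579907 to 6897852 human reads in brain metastases (4.83 to 7.52% of the library), 27253282 to 48152857 in subcutaneous tumours and 29579879 to 49599168 in monolayer. The 40 genes took 26102 to 47585 reads per brain metastasis library, and no gene had under 101 reads in any of them. Tumour-free brain gave 43 human reads for the 40 genes over 8 libraries. At that rate per mouse read, mouse RNA would account for 0.0546% of their 187970 reads in metastases (0.318% at most for a single gene, CCNE2). Scaled instead by mouse reads of the same-named genes, the share for the 40 genes would be 0.0738%, and single genes were not scaled in this way. Of 6 adenocarcinoma markers, EPCAM, KRT8, KRT18 and MUC1 were above 1 in every library with cancer cells, whereas KRT7 reached at most 1.46 and KRT19 at most 0.414. The summed markers reached 1630 to 2276 in brain, 949.9 to 1096 in subcutaneous tumours and 365 to 402 in monolayer. Human neuron markers summed to 2.69 to 10.5 in metastases, and mouse ones to 1390.5 to 2036. Values below are reads per kilobase of gene length, normalised to library size (RPKM) and rescaled to a sum of 1000000 per library. They compare 1 gene between libraries and not genes with each other, because the authors' gene lengths differ from the main transcript (579 bases for TOP2A, whose canonical transcript has 5695).

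The promoters of the 40 genes, 250 bases before each start in GENCODE 44 on hg38, were searched on both strands for 3 elements that are known from cell cycle genes. The letters searched were TTTGAA for the CHR element, to which MuvB complexes bind, CCAAT for the box bound by NF-Y, and TTCCCGC or TTGGCGC or TTCGCGC or TTGCCGC for E2F factors, and matches were allowed to overlap. The CHR letters stood in 15 of 25 mitotic promoters, in 0 of 10 replication promoters and in 0 of 5 G1/S promoters, beside 10.2% of 20046 protein-coding promoters. E2F letters were divided the other way, with 4 of 25 mitotic, 6 of 10 replication and 4 of 5 G1/S promoters, beside 14.4% of all promoters. CCAAT was frequent in all classes, in 21 of 25 mitotic, 9 of 10 replication and 3 of 5 G1/S promoters, beside 34.3% of all. Base composition differed too, with a median GC content of 58.8% in mitotic, 68.8% in replication and 72.4% in G1/S promoters and 63.2% in all, and its part in these shares was not tested. A match describes the letters of the window and is not evidence of binding. Windows of 3 mitotic genes (CDC20, TOP2A, KIF11), 2 replication genes (MCM6, GINS2) and 1 G1/S gene (CDT1) were picked as examples of this division. They overlap no annotated exon and are shown 5′ to 3′ on the strand of the gene, with the matched letters in capitals. Of the other windows without such overlap, those of MKI67 and E2F1 followed the division. That of CCNA2 lacked the CHR letters, and those of PCNA and CDC6 lacked the E2F letters. A match on the other strand appears as its reverse complement, such as TTCAAA for CHR and ATTGG for CCAAT.
CDC20: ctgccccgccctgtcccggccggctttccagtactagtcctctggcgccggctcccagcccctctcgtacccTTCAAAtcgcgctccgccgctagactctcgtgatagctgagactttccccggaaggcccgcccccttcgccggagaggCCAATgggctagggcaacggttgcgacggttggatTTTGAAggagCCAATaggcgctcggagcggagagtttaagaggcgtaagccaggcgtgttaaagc
TOP2A: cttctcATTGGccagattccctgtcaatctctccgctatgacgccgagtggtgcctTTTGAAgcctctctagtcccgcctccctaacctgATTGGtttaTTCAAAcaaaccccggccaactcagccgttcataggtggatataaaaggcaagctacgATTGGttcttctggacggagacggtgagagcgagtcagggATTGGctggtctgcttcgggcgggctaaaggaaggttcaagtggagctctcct
KIF11: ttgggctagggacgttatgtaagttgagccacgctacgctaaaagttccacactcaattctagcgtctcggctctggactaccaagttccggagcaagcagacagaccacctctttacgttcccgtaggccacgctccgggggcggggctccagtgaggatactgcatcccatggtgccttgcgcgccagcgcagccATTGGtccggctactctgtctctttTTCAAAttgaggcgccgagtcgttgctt
MCM6: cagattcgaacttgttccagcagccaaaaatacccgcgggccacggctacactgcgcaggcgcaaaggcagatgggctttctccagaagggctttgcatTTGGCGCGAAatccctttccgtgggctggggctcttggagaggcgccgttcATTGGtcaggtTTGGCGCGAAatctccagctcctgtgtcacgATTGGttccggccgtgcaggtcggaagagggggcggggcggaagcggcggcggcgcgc
GINS2: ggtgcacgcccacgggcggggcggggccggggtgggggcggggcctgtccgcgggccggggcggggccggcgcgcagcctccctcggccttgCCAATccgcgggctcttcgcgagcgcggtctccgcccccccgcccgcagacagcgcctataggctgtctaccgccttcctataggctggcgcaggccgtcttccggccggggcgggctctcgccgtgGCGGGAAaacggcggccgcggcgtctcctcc
CDT1: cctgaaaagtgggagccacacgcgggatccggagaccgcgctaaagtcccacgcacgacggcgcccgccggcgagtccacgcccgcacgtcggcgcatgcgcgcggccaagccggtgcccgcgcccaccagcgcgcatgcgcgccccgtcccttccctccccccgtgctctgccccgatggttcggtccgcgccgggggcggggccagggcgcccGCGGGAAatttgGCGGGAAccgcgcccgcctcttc
These windows lie at chr1:43358731-43358980 (plus strand), chr17:40417897-40418146 (minus), chr10:92592880-92593129 (plus), chr2:135876444-135876693 (minus), chr16:85688955-85689204 (minus) and chr16:88803539-88803788 (plus). CDC20 held 2 CHR and 2 CCAAT matches, of which a CHR match began 65 bases and a CCAAT match 55 bases before the start. TOP2A held 4 CCAAT and 2 CHR matches, and KIF11 held 1 CCAAT match at 53 bases and 1 CHR match at 28 bases. MCM6 held 4 E2F matches, in pairs on opposite strands that overlap, and 2 CCAAT matches, GINS2 held 1 of each, and CDT1 held 2 E2F matches 35 and 23 bases before its start and neither of the other elements. The windows of CENPE, NDC80 and MCM2 held none of the 3 elements. As a description, the 15 mitotic genes with the CHR letters had a median log2 change in brain over subcutaneous tumours of 0.56 and the 10 without them 0.77. The medians were -0.76 with and -0.69 without the letters in subcutaneous tumours over monolayer, and -0.19 and -0.17 in brain over monolayer. In forebrain over hindbrain metastases they were -0.05 and -0.10.

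The first comparison asked how cancer cells in brain (n = 6) differed from the same cells under the skin (n = 4). All 40 genes had a positive change, as did 8155 of all 14557 genes tested. Of the 40 genes, 39 rose in brain, with 0 lower by limma (0 at an unadjusted p under 0.05, and 0 with voom). Of 14557 genes tested, 50.0% were called in this comparison, with 31.2% higher and 18.8% lower (4537 and 2739 genes). Median-of-ratios scaling split those calls into 3553 higher and 3614 lower genes, and scaling to nuclear genes into 3466 and 3675, while the 39 calls of the set were kept under both. The median log2 change was 0.66 over the 25 mitotic genes, 0.59 over the 10 replication genes and 0.58 over the 5 G1/S genes, against 0.05 over all genes tested. Brain and subcutaneous libraries did not overlap in 38 of the 40 genes, all higher in brain, where 21.3% of all genes did so in this direction and 10.4% in the other. The only gene not called was E2F1. In bulk RNA, more cycling cells and more RNA per cycling cell cannot be told apart.

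**Figure D1:**
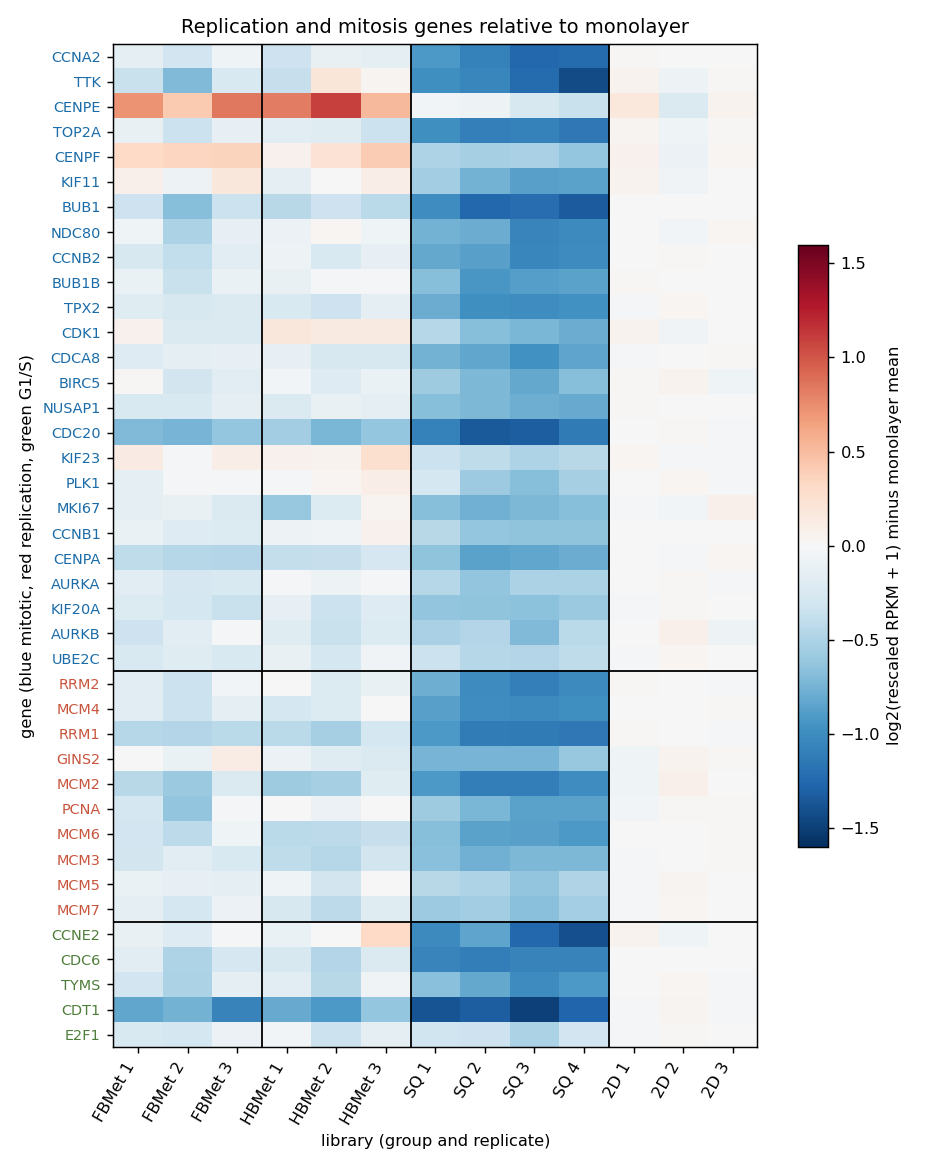
Heat map of the 40 genes (rows, by class and by change in brain over subcutaneous tumours) in 13 libraries (columns), as log2(rescaled RPKM + 1) minus the monolayer mean. Subcutaneous columns are lowest for nearly every row, and CENPE and CENPF are above the monolayer mean in all 6 brain columns.

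Cyclin genes of S phase were among the largest changes. Cyclin A2 (CCNA2), a partner of CDK2 and CDK1 in S phase and G2, had 29.4, 26.4 and 31.3 in forebrain and 25.9, 30.4 and 29.7 in hindbrain metastases, against 16.9, 15.1, 13.2 and 13.5 in subcutaneous tumours, with 33.4, 32.7 and 32.9 in monolayer. Every brain library was above every subcutaneous one, and the change was 1.91-fold (log2 0.93 ± 0.08 SE, adjusted p = 4.4e-07). CCNE2, the gene of cyclin E2 that drives entry into S phase, had the largest change of the 40 genes at 2.15-fold (log2 1.11 ± 0.11, adjusted p = 1.55e-06). Its values were 29.5, 27.6 and 31.3 in forebrain and 29.7, 31.9 and 40.2 in hindbrain metastases, against 15.3, 17.4, 12.8 and 11.5 in subcutaneous tumours, with 33.3, 30.6 and 32.2 in monolayer. Brain overlapped culture for this gene and stood clear of the tumours under the skin.

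Cyclin B1 (CCNB1), which activates CDK1 for entry into mitosis, had 343, 319.9 and 317 in forebrain and 349.5, 356 and 389 in hindbrain metastases, against 272, 240.3, 236 and 236 in subcutaneous tumours, with 367, 373 and 370.1 in monolayer. The change over subcutaneous tumours was 1.4-fold (adjusted p = 3.09e-06) and all brain libraries were higher. Its partner kinase CDK1 averaged 59.9 ± 7.77 in brain and 37.0 ± 4.01 in subcutaneous tumours (SD, n = 6 and 4), 1.6-fold higher. PLK1, a kinase of mitotic entry and spindle assembly, was 1.42-fold higher. AURKA, the centrosomal aurora kinase, and AURKB, the kinase of the chromosomal passenger complex, were among the smaller changes at 1.31-fold and 1.25-fold. The passenger subunits BIRC5 (survivin) and CDCA8 (borealin) were 1.48-fold and 1.58-fold higher.

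TOP2A, the topoisomerase that untangles sister chromatids, had 1832, 1562 and 1814 in forebrain and 1752, 1727 and 1568 in hindbrain metastases, against 1001, 931, 934 and 898 in subcutaneous tumours, with 2049, 1894 and 2006 in monolayer. The brain libraries lay between the other groups without overlap, 1.81-fold above subcutaneous tumours (log2 0.86 ± 0.05, adjusted p = 3.41e-08). MKI67, the gene of the proliferation antigen Ki-67 that coats mitotic chromosomes, had 72.5, 73.8 and 68.3 in forebrain and 52.7, 69.0 and 82.8 in hindbrain metastases, against 49.7, 46.8, 48.5 and 49.7 in subcutaneous tumours, with 78.4, 77.8 and 85.4 in monolayer. The lowest brain value, in HBMet replicate 1, was just above the highest subcutaneous value, and the other 5 stood clear of it. UBE2C, the ubiquitin-conjugating enzyme of the anaphase-promoting complex, had the smallest called change at 1.17-fold (adjusted p = 0.00128).

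Among checkpoint and kinetochore genes, TTK (the checkpoint kinase MPS1) had 103, 80.8 and 112 in forebrain and 103, 152 and 138 in hindbrain metastases, against 67.1, 63.8, 56.0 and 48.9 in subcutaneous tumours, with 138, 126 and 135 in monolayer. TTK was 1.91-fold higher in brain than under the skin (adjusted p = 1.79e-05), although the brain libraries differed among themselves from 80.8 to 152. CENPE, the kinetochore motor that carries chromosomes to the spindle equator, had 40.5, 32.7 and 44.3 in forebrain and 43.4, 53.0 and 35.3 in hindbrain metastases, against 23.5, 22.9, 20.1 and 18.8 in subcutaneous tumours, with 27.5, 20.6 and 25.3 in monolayer. CENPF, a large kinetochore protein gene, had 481, 491 and 496 in forebrain and 406, 455 and 511 in hindbrain metastases, against 275, 266, 268 and 250.5 in subcutaneous tumours, with 404, 361 and 395 in monolayer. For both genes each brain library exceeded each library of the other groups, and over subcutaneous tumours the changes were 1.89-fold for CENPE (adjusted p = 2.3e-05) and 1.78-fold for CENPF (adjusted p = 9.16e-08). The checkpoint genes BUB1 and BUB1B were 1.71-fold and 1.64-fold higher, and NDC80, which anchors microtubules at the kinetochore, was 1.7-fold higher. CENPA, the centromeric histone, rose 1.31-fold.

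CDC20, the activator of the anaphase-promoting complex, had 88.6, 86.7 and 94.6 in forebrain and 98.4, 87.4 and 94.0 in hindbrain metastases, against 68.3, 56.6, 57.7 and 65.6 in subcutaneous tumours, with 146, 147 and 143 in monolayer. The 3 settings were separate from each other, and the change over subcutaneous tumours was 1.47-fold (adjusted p = 4.37e-06). Among spindle motors and their partners, KIF11, which pushes the poles apart, rose 1.72-fold, TPX2, the activator of AURKA on the spindle, 1.62-fold and NUSAP1, a microtubule bundler, 1.47-fold. The cytokinesis kinesins KIF23 and KIF20A rose 1.44-fold and 1.3-fold, and cyclin B2 (CCNB2) 1.64-fold.

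**Figure D2:**
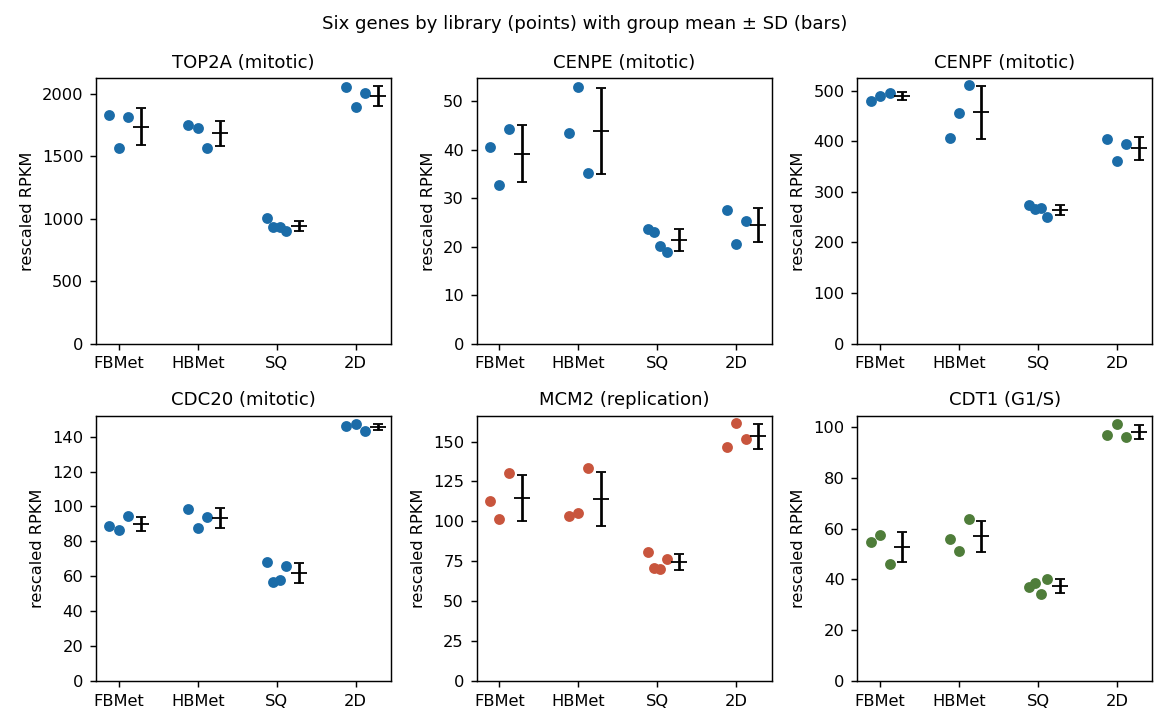
Rescaled RPKM (linear axis from 0) of 6 genes in each library of forebrain metastases (FBMet), hindbrain metastases (HBMet), subcutaneous tumours (SQ) and monolayer (2D), with points for libraries and bars for the group mean ± SD. All brain values of CENPE and CENPF stand above the monolayer, while CDC20, MCM2 and CDT1 in brain lie between the subcutaneous tumours and the monolayer.

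The replication genes rose in brain too. MCM2, a subunit of the replicative helicase, had 113, 101 and 130.3 in forebrain and 103, 105 and 133 in hindbrain metastases, against 80.5, 70.8, 70.4 and 76.1 in subcutaneous tumours, with 146, 162 and 152 in monolayer. Brain was 1.52-fold above subcutaneous tumours (adjusted p = 3.31e-05), again between the other settings without overlap. MCM4, another helicase subunit, had 443, 391 and 448 in forebrain and 408, 426 and 499 in hindbrain metastases, against 271, 249.96, 245 and 251 in subcutaneous tumours, with 497, 493 and 502 in monolayer, and was 1.71-fold higher than under the skin (adjusted p = 1.97e-07). The remaining helicase subunits MCM3, MCM5, MCM6 and MCM7 rose 1.33, 1.3, 1.41 and 1.28-fold, so the subunits of 1 complex ranged from 1.28 to 1.71-fold. GINS2, a subunit of the complex that activates the helicase, averaged 51.3 ± 4.73 in brain and 32.9 ± 1.63 in subcutaneous tumours, 1.54-fold higher.

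RRM2, the S phase subunit of ribonucleotide reductase, had 544, 485 and 596 in forebrain and 616, 529.7 and 564 in hindbrain metastases, against 358, 306, 287 and 303 in subcutaneous tumours, with 624, 619.7 and 601 in monolayer. At 1.77-fold (log2 0.83 ± 0.07, adjusted p = 4.46e-07) it had the largest change of the replication class. RRM1, the large subunit of that enzyme, had 249, 245 and 253 in forebrain and 253, 236 and 281 in hindbrain metastases, against 180.4, 156, 154 and 154 in subcutaneous tumours, with 346, 340.4 and 336 in monolayer. It was 1.56-fold higher in brain (adjusted p = 6.29e-07). PCNA, the sliding clamp, had 57.4, 45.1 and 69.1 in forebrain and 70.5, 65.9 and 69.8 in hindbrain metastases, against 47.0, 42.0, 38.2 and 38.4 in subcutaneous tumours, with 68.2, 71.2 and 71.0 in monolayer. FBMet replicate 2 fell within the subcutaneous range and the other 5 brain libraries did not, and the change was 1.5-fold (adjusted p = 0.000165).

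In the G1/S class, the licensing gene CDC6 had 174, 140.0 and 164 in forebrain and 166, 143 and 169 in hindbrain metastases, against 94.9, 91.2, 93.9 and 94.2 in subcutaneous tumours, with 198, 199 and 198 in monolayer, a change of 1.69-fold over subcutaneous tumours (adjusted p = 3.58e-07). TYMS, thymidylate synthase, had 189, 165 and 211 in forebrain and 206, 173 and 225 in hindbrain metastases, against 146, 132, 117 and 124 in subcutaneous tumours, with 232, 239 and 231 in monolayer. Its change was 1.49-fold (adjusted p = 6.14e-05). CDT1, the licensing partner of CDC6, had 54.7, 57.3 and 46.2 in forebrain and 55.8, 51.3 and 63.6 in hindbrain metastases, against 36.9, 38.6, 34.0 and 40.04 in subcutaneous tumours, with 96.9, 101 and 95.9 in monolayer. CDT1 rose 1.45-fold over subcutaneous tumours (adjusted p = 4.05e-05), but its brain values stayed nearer to them than to culture. E2F1, the transcription factor that drives this class, averaged 15.2 ± 1.27 in brain and 13.3 ± 0.918 in subcutaneous tumours, and the groups overlapped (log2 0.17 ± 0.07, adjusted p = 0.0662).

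**Figure D3:**
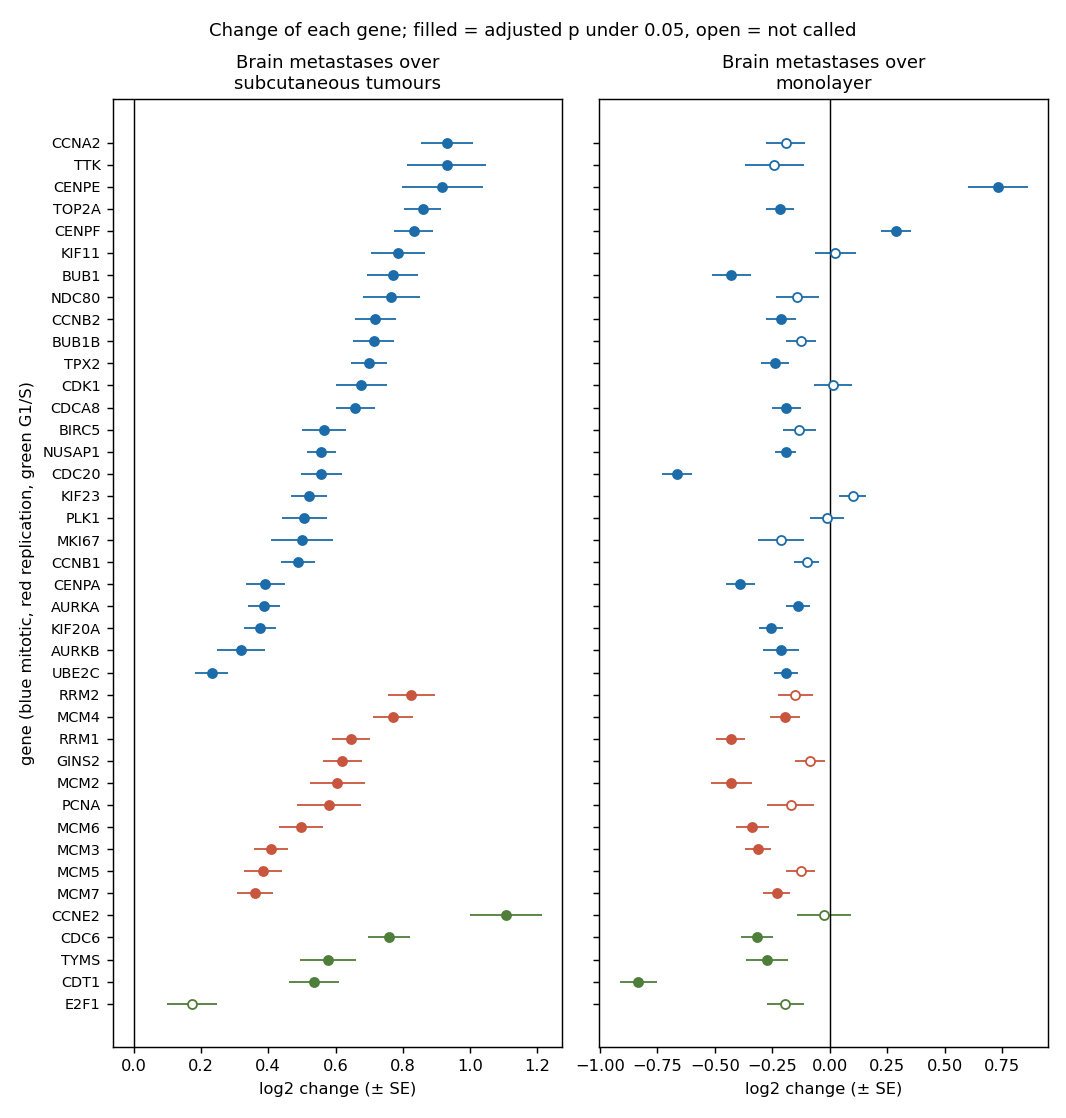
Log2 change of each gene (points, ± SE of the limma fit; filled where the adjusted p was under 0.05) in brain metastases over subcutaneous tumours (left) and over monolayer (right). All 40 points on the left are above 0, and on the right 35 are below 0, with CENPE and CENPF called above it.

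Transcript length moved with this change. Across the 40 genes the Spearman correlation between canonical transcript length and log2 change in brain over subcutaneous tumours was 0.43 (0.55 over the mitotic genes), as a description with no test, and across 14368 genes of the whole table it was 0.24. The 5 genes with transcripts over 5000 bases had a median log2 change of 0.83, and the other 35 had 0.58. In brain over monolayer the correlations were 0.04 for the 40 genes and 0.00 for the whole table. There the 5 long genes had a median log2 change of 0.03 and the other 35 had -0.19. In subcutaneous tumours over monolayer the correlations were -0.13 for the 40 genes and -0.19 for the whole table. Between forebrain and hindbrain metastases they were 0.40 and 0.13. The part of transcript length in these differences was not tested. All 39 calls were kept in all 20 settings, which include the reported one and subtraction of the reads expected from mouse RNA.

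The second comparison set the metastases (n = 6) against the monolayer (n = 3), and shares the brain libraries with the first. Here 2 genes rose, 21 fell and 17 were not called, with 42.9% of all genes called (21.9% higher and 21.0% lower). The median log2 change was -0.19 over the mitotic, -0.21 over the replication and -0.27 over the G1/S genes, against 0.01 over all genes. The groups did not overlap in 2 genes that were higher and 22 that were lower in brain, where 19.5% and 19.1% of all genes did so. Of the mitotic genes 12 fell and 2 rose, of the replication genes 6 fell, and of the G1/S genes 3 fell. The changes were small: the median of the 40 was a 1.14-fold difference.

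The genes that rose were CENPE and CENPF. CENPE averaged 41.5 ± 7.22 in brain and 24.5 ± 3.51 in monolayer (SD, n = 6 and 3), 1.66-fold higher (log2 0.73 ± 0.13, adjusted p = 0.000436). CENPF averaged 473 ± 38.0 in brain and 386 ± 22.9 in monolayer, 1.22-fold higher (log2 0.29 ± 0.06, adjusted p = 0.0023). Both calls were kept in all 19 settings, the reported one included. Both have transcripts over 5000 bases. So do MKI67 and KIF11, which were not called here, and TOP2A, which fell. In the same comparison BUB1 and CENPA fell, and NDC80 stood at 144 ± 17.5 in brain and 158 ± 3.81 in monolayer (adjusted p = 0.242).

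The largest fall was in CDT1, to 54.8 ± 5.86 in brain against 97.9 ± 2.73 in monolayer (1.78-fold, log2 -0.83 ± 0.08, adjusted p = 2.04e-06). CDC20 fell to 91.6 ± 4.75 in brain against 146 ± 1.86 in monolayer (1.58-fold, adjusted p = 2.39e-06). BUB1, with 183, 143 and 181 in forebrain and 169, 182 and 170.2 in hindbrain metastases against 231, 230.2 and 229 in monolayer (and 115, 95.6, 98.7 and 91.0 in subcutaneous tumours), fell 1.34-fold (adjusted p = 0.000861). CENPA, with 25.2, 24.3 and 24.1 in forebrain and 25.7, 25.9 and 27.8 in hindbrain metastases against 33.7, 32.9 and 34.4 in monolayer, fell 1.31-fold (adjusted p = 0.000208). For these 4 genes each brain library was below each monolayer library.

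Replication genes that fell were led by RRM1 (1.35-fold, adjusted p = 6.8e-05), MCM2 (1.34-fold, adjusted p = 0.00154) and MCM6. MCM6 had 222, 205 and 263 in forebrain and 203, 206 and 213 in hindbrain metastases against 273, 273 and 279 in monolayer, 1.26-fold lower (adjusted p = 0.00168). CDC6 fell 1.25-fold (adjusted p = 0.00178) and TYMS 1.21-fold (adjusted p = 0.0262). The TYMS call was lost without FBMet replicate 2 (0.0509) and without monolayer replicate 1, 2 or 3 (0.0673, 0.0899 and 0.0648). RRM2 stood at 556 ± 47.4 in brain and 615 ± 12.3 in monolayer and did not pass (adjusted p = 0.129). PCNA stood at 62.9 ± 10.001 in brain and 70.1 ± 1.71 in monolayer and did not pass either (adjusted p = 0.205), but did without FBMet replicate 3 (0.0328). MKI67 was not called (log2 -0.21 ± 0.10, adjusted p = 0.102), but passed without HBMet replicate 3 (0.00799). Leaving out 1 monolayer library left 14 of the set lower without replicate 1 or replicate 2, and 15 without replicate 3, in place of 21.

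The third comparison set subcutaneous tumours (n = 4) against monolayer (n = 3), whose libraries the first 2 comparisons also use. All 40 genes had a negative change, as did 7974 of all 14557 genes tested. Of the 40 genes, 39 fell, with 0 higher (0 at an unadjusted p under 0.05 and 0 with voom). Of all genes, 52.4% were called (21.5% higher and 30.9% lower, 3136 and 4499 genes). The split of all calls was 3588 higher and 3931 lower with median-of-ratios scaling and 4117 and 3296 with scaling to nuclear genes, under which the median of all genes was 0.05 in place of -0.05, and the 39 falls were kept under both. The groups did not overlap in 39 of the 40 genes, where 38.4% of all genes did so in this direction. The median log2 change was -0.75 over the mitotic, -0.79 over the replication and -1.07 over the G1/S genes, against -0.05 over all genes. Within the classes the largest falls were those of CDT1 (2.58-fold), CDC20 (2.33-fold), BUB1 (2.29-fold), TTK (2.25-fold), CCNE2 (2.19-fold), CDC6 (2.11-fold), RRM1 (2.11-fold) and MCM2 (2.05-fold), with adjusted p between 1.06e-08 for CDC20 and 7.96e-06 for TTK. RRM2 fell 1.96-fold. CENPE was the exception, at 21.3 ± 2.26 in subcutaneous tumours and 24.5 ± 3.51 in monolayer (log2 -0.19 ± 0.14, adjusted p = 0.292). The smallest falls were in E2F1 (1.29-fold), UBE2C (1.34-fold) and KIF23 (1.34-fold). All 39 calls were kept in all 16 settings, the reported one included.

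On a scale from the subcutaneous mean (0%) to the monolayer mean (100%) of log2 values, the brain mean of the median gene stood at 76.2%. The median was 79.5% for mitotic genes, 68.1% for replication genes and 67.8% for G1/S genes. The lowest positions were those of CDT1 (39.2%), CDC20 (45.7%), E2F1 (47.3%) and CENPA (50.1%). In 5 mitotic genes brain was beyond the monolayer mean (CENPE, CENPF, KIF23, KIF11 and CDK1), of which CENPE and CENPF were called. The change over monolayer took both signs between settings for CDK1 (log2 -0.04 to 0.04) and KIF11 (-0.01 to 0.06). CENPE stood at 496%, with subcutaneous and monolayer means that were close to each other.

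Mitotic and replication genes were then set side by side in each library, as the class median of log2(value + 1) minus the monolayer mean. The mitotic median was -0.20 ± 0.06 in forebrain metastases, -0.11 ± 0.03 in hindbrain metastases and -0.75 ± 0.08 in subcutaneous tumours. The replication median was -0.23 ± 0.11 in forebrain metastases, -0.27 ± 0.08 in hindbrain metastases and -0.82 ± 0.08 in subcutaneous tumours (SD, n = 3, 3 and 4). Mitotic minus replication was 0.03 ± 0.07 in forebrain metastases, 0.16 ± 0.06 in hindbrain metastases, 0.06 ± 0.02 in subcutaneous tumours and 0.00 ± 0.03 in monolayer. It was positive in all 3 hindbrain libraries (0.12 to 0.23), in all 4 subcutaneous libraries (0.04 to 0.09) and in 2 of 3 forebrain libraries (all between -0.05 and 0.08). These class differences are small beside the drop that both classes share under the skin, and no test was made because the genes were chosen with results known.

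**Figure D4:**
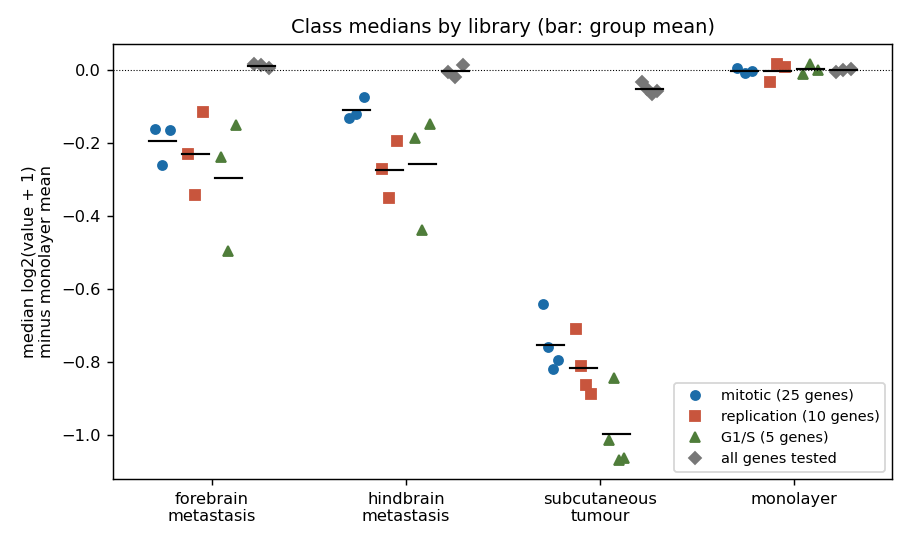
Median over each class of log2(rescaled RPKM + 1) minus the monolayer mean, per library (points) with the group mean (bars), for mitotic, replication and G1/S genes and all genes tested. The 3 classes drop together in subcutaneous tumours, to -0.75, -0.82 and -0.998 (group means), while all genes tested stay within 0.07 of the monolayer in every library.

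The last comparison set forebrain (n = 3) against hindbrain metastases (n = 3). Of the 40 genes 0 were called by limma, with 3.3% of all genes called (1.85% higher and 1.45% lower). At an unadjusted p under 0.05, 2 were higher in forebrain (GINS2 and MCM3) and 5 lower (AURKA, CCNB1, CDK1, PCNA and TTK), where 11.67% and 8.7% of all genes were, and voom called 0. The widest difference was in TTK, at 98.8 ± 16.2 in forebrain and 131 ± 25.3 in hindbrain metastases (log2 -0.40 ± 0.15, adjusted p = 0.152). CDK1 stood at 54.1 ± 6.9 and 65.8 ± 0.901 in the same regions (adjusted p = 0.109), and AURKA at 63.7 ± 2.21 and 72.4 ± 1.55 (adjusted p = 0.109). The regions did not overlap in 0 genes that were higher and 4 that were lower in forebrain (AURKA, CCNB1, CDK1 and CENPA), where 9.07% and 6.57% of all genes did so. CDK1 passed without FBMet replicate 1 (0.0369) and PCNA without FBMet replicate 3 (0.0363). That no gene passed does not show that the regions were alike.

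Other genes of the same processes were taken from lists of 140 genes. Of 36 further replication genes, 36 were higher in brain than under the skin (median log2 0.54), where 31.2% of all genes were, led by the initiation factor gene MCM10 (1.9-fold), DBF4, the activator of the CDC7 kinase (1.83-fold), and the licensing inhibitor GMNN (1.77-fold). Over monolayer 3 were higher (8.33%, against 21.9% of all genes), among them the CDC7 kinase gene (1.25-fold) and the dUTPase gene DUT (1.16-fold), and 16 were lower (44.4%, against 21.0% of all genes), led by the primase genes PRIM1 (1.48-fold) and PRIM2 (1.42-fold) and by the replisome gene WDHD1 (1.33-fold). In subcutaneous tumours 34 of the 36 were lower than in monolayer (94.4%, against 30.9% of all genes), PRIM1 by 2.48-fold, GINS4 by 2.15-fold and PRIM2 by 2.1-fold.

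Of 51 further mitotic genes, 48 were higher in brain than under the skin and 2 lower (94.1% and 3.92%, against 31.2% and 18.8% of all genes; median log2 0.59). The largest were the centromere protector SGO2 (2.18-fold), the kinetochore scaffold KNL1 (204 ± 20.7 in brain against 94.1 ± 8.75 in subcutaneous tumours, 2.15-fold) and HMMR, a spindle protein gene (1.95-fold). The 2 lower ones were the kinetochore gene SPC24 (1.19-fold) and CDC25B, a phosphatase that activates CDK1 (1.17-fold). Over monolayer the shares were nearer to those of all genes, with 7.84% higher and 27.5% lower, against 21.9% and 21.0%. There 4 rose, among them CDC25B (1.31-fold), SGO2 (1.27-fold) and the kinesin KIF18A (1.2-fold), and 14 fell, led by the phosphatase CDC25C (1.51-fold), the condensin subunit NCAPH (1.39-fold) and the mitotic kinase PBK (1.39-fold). In subcutaneous tumours 48 were lower than in monolayer (94.1%, against 30.9% of all genes), PBK by 2.44-fold, ASPM, a spindle pole gene, by 2.24-fold and CDC25C by 2.22-fold, and CDC25B alone was higher (1.54-fold). Between regions, CENPK of the inner kinetochore (26.2 ± 2.61 in forebrain, 38.3 ± 2.88 in hindbrain) and the checkpoint gene MAD2L1 (63.9 ± 6.57 and 88.4 ± 3.61) were lower in forebrain metastases, where 1.45% of all genes were. The number of genes called between regions varied strongly with the setting, and whether these calls hold under other settings is not given here.

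**Figure D5:**
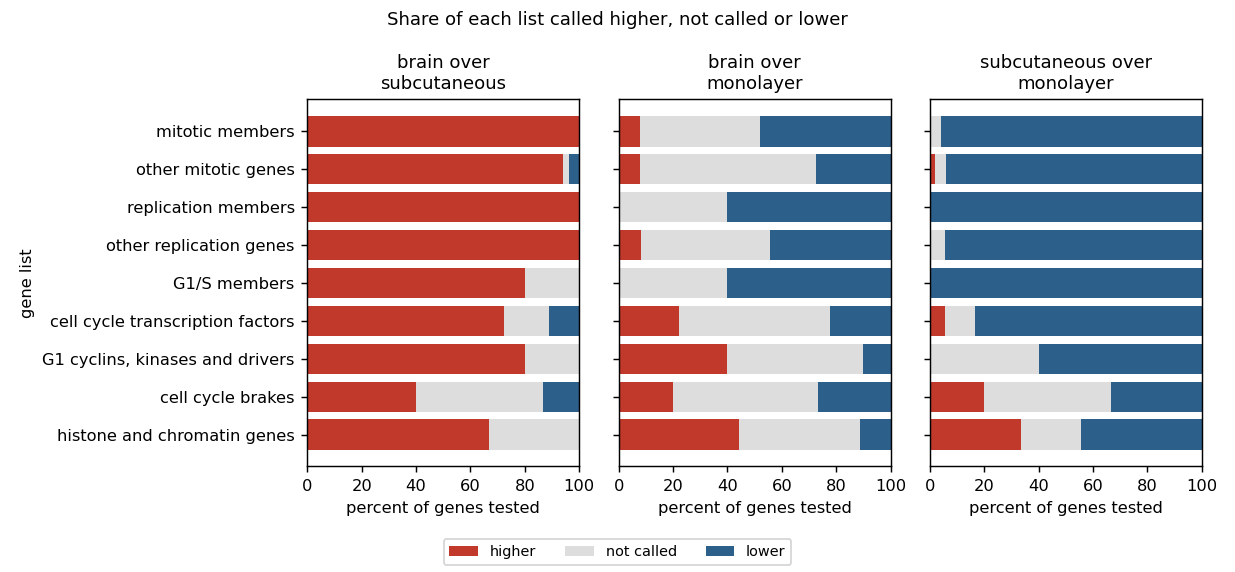
Share of the tested genes of each list that were called higher, not called or lower in 3 comparisons (bars sum to 100%). Replication and mitotic lists are almost wholly higher in brain over subcutaneous tumours and lower in subcutaneous tumours over monolayer, whereas the brakes are called in both directions in each of the 3 comparisons.

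Among 18 transcription factor genes of the cell cycle, 13 were higher and 2 lower in brain than under the skin (72.2% and 11.1%, against 31.2% and 18.8% of all genes). RB1, the retinoblastoma repressor, was 1.94-fold higher, FOXM1, an activator of mitotic genes, 1.72-fold (84.7 ± 3.96 in brain against 49.0 ± 2.33 in subcutaneous tumours), and TFDP1, the partner of E2F factors, 1.64-fold. E2F4 (1.08-fold) and the MuvB subunit LIN37 (1.54-fold) were lower. Over monolayer the shares were near those of all genes, 22.2% in each direction against 21.9% higher and 21.0% lower. The 4 higher genes were led by the MuvB subunit RBBP4 (1.27-fold), MYBL2, which encodes B-MYB (1.19-fold), and RB1 (1.16-fold), and the 4 lower ones by E2F7 (1.5-fold), RBL2 (1.19-fold) and E2F3 (1.18-fold). In subcutaneous tumours 15 of 18 were lower than in monolayer (83.3%, against 30.9% of all genes), E2F7 by 2.41-fold, RB1 by 1.66-fold and TFDP1 by 1.54-fold, and LIN37 was higher (1.69-fold).

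Of 10 genes that drive G1, 8 were higher in brain than under the skin, where 31.2% of all genes were, and 2 were not called. CCND3, a D-type cyclin, was 1.78-fold higher (44.1 ± 5.17 in brain against 24.3 ± 0.694 in subcutaneous tumours), SKP2, which targets the inhibitor p27 for destruction, 1.65-fold, and CCND1, cyclin D1, 1.57-fold. Over monolayer CCND3 (1.76-fold), the kinase CDK6 (1.51-fold) and CCNE1 (1.38-fold) led 4 rises and CDK2 fell (1.28-fold), where 21.9% of all genes were higher and 21.0% lower. In subcutaneous tumours 6 of the 10 were lower than in monolayer, against 30.9% of all genes, CDK2 by 2.0-fold, SKP2 by 1.77-fold and CDC25A by 1.57-fold. Forebrain exceeded hindbrain metastases, as in 1.85% of all genes, in CDK6 (518 ± 57.7 against 387 ± 31.9) and CCND1 (401 ± 25.8 against 343 ± 7.65). Whether these region calls hold under other settings is not given here either.

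Brakes of the cycle were called in shares near those of all genes. Of 15 tested, 6 were higher and 2 lower in brain than under the skin, where 31.2% of all genes were higher and 18.8% lower. CDKN1A, the gene of the inhibitor p21, stood at 21.5 ± 6.66 in brain and 36.5 ± 7.13 in subcutaneous tumours, 1.7-fold lower (log2 -0.77 ± 0.14, adjusted p = 0.000536), and the antiproliferative gene TOB1 was 1.3-fold lower. CDKN2C, the CDK4 and CDK6 inhibitor p18, was 1.7-fold higher, CCNG1 1.53-fold and GADD45A 1.39-fold. In subcutaneous tumours over monolayer BTG1 (1.95-fold), CDKN1A (1.86-fold) and TOB1 (1.49-fold) were higher (20%, against 21.5% of all genes). There 5 were lower (33.3%, against 30.9% of all genes), led by CDKN2B (2.43-fold), CCNG1 (2.29-fold) and GADD45B (2.19-fold). Brain over monolayer had 3 higher (20%, against 21.9% of all genes), BTG1 by 1.87-fold, CDKN2C by 1.72-fold and CDKN1B by 1.4-fold. In that comparison 4 were lower (26.7%, against 21.0% of all genes), led by CDKN2B (2.11-fold), GADD45B (1.63-fold) and CDKN2D (1.53-fold).

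Of 9 histone and chromatin genes, 6 were higher in brain than under the skin (66.7%, against 31.2% of all genes), led by HMGB2 (1.58-fold), H4C3 (1.45-fold, at 1.83 in brain) and H2AZ1 (1.45-fold). The histone genes H2AC6, H2BC5 and H1-2, which belong to the clustered histone genes, were higher than in monolayer both in brain (2.57, 1.98 and 1.69-fold) and in subcutaneous tumours (2.24, 1.81 and 1.69-fold). How far the libraries capture transcripts without a poly(A) tail is not given in the sources used here. In subcutaneous tumours HMGB2 (1.82-fold), H2AZ1 (1.61-fold) and the histone mRNA binding gene SLBP (1.49-fold) were lower than in monolayer, and HMGB2 was lower in brain than in monolayer too (1.15-fold). Over monolayer 4 of the 9 were higher and 1 lower in brain, and 3 were higher and 4 lower in subcutaneous tumours, where 21.9% and 21.0%, and 21.5% and 30.9%, of all genes were.

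Over the 13 libraries the 40 genes followed the mitotic median closely, with Pearson correlations of 0.63 (CENPE) to 0.98 (BUB1B) and a median of 0.94 for mitotic genes, from 0.83 (MCM3) to 0.97 (MCM4) with a median of 0.91 for replication genes, and from 0.76 (CDT1) to 0.96 (CCNE2) for G1/S genes. Mitotic genes are part of that median, the points share libraries and group differences, and the median over all genes tested was 0.13. Outside all lists, the genes most like it were SUV39H1 (0.98), a histone methyltransferase gene, HMGB3 (0.98), ARHGAP11A (0.98), MRPS16 (0.97) and DEK (0.97).

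To compare levels between genes, reads were divided by canonical transcript length. On that scale, in monolayer, TOP2A (460.3 ± 20.1), UBE2C (427 ± 9.17) and MCM7 (375 ± 8.08) were the highest, and CENPE (13.9 ± 2.04), CCNE2 (22.7 ± 1.06) and GINS2 (29.5 ± 1.23) the lowest of the 40 (SD, n = 3). In subcutaneous tumours UBE2C was the highest at 284 ± 15.9, followed by MCM7 at 222 ± 7.02 and TOP2A at 195 ± 12.4, and CCNE2 was the lowest at 8.99 ± 1.66 (n = 4).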

How the data were processed

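Human and mouse RPKM (reads per kilobase and per 1000000 reads) were deposited by the authors for each library against builds hg38 and mm10, per the labels and the submitters' processing notes. No source used here names the aligner, the counter or how reads were assigned to a species. Libraries followed a standard Illumina protocol from total RNA of a lipid tissue kit, per the labels' protocols.

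From these values whole reads were recovered from the steps between low values, and 100.0% of 33975 human genes above 0 came out whole within 0.02. Of these, 17893 were above 0 in at least 10 libraries. A gene seen in few libraries comes out whole almost by construction, so the 100.0% is no check on such genes. RPKM were rescaled to a sum of 1000000 per library over human genes and tested as log2(value + 1), a scale that understates changes of low genes. Genes at 1 or more in at least 3 of 13 libraries were kept (14557 genes). All comparisons came from 1 fit of these libraries with limma 3.58.1 (trend and robust) in R 4.3.3, two-sided, with Benjamini-Hochberg adjustment over all genes tested and calls at an adjusted p under 0.05. Brain is the equal-weight mean of the 2 region means. Every adjusted p in the text comes from limma unless voom, its version for the recovered reads, is named.

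The 40 genes and the other lists were chosen with earlier results of these data known. Values in every library are given for 7 set genes and for up to 3 called genes with the largest change per class, direction and comparison, and up to 3 genes per list are named likewise. Some genes that this rule would name are not reported here. AURKA, AURKB and other genes of the set are given by their change. Promoter windows, gene positions and canonical transcripts came from GENCODE 44 on hg38, since no table of promoters was used. Protein length was not used. Alternatives were the pseudocount, the filter, 2 other scalings, a replicate block, fits of only the groups compared, averaging of metastases by number, each library left out, voom and subtraction of mouse reads. Read recovery and the reported limma fit were tried on simulated data, in which genes were changed only in subcutaneous libraries. Other steps, such as voom, the other scalings and the promoter search, were not tried in this way. The number of reads per library limits the precision of low genes.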

Additional observations from a re-analysis of the deposited data

Results flagged for a closer look

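Among the 40 genes, 5 had a subcutaneous library that stood apart from the other 3 by Dixon's criterion for 4 libraries, which chance meets in about 1 in 20 groups. SQ replicate 1 was high in CCNB1 (272 against 236 to 240.3 in the other 3), in TPX2 (46.3 against 39.9 to 40.6) and in RRM1 (180.4 against 154 to 156). SQ replicate 4 was high in GINS2 (35.4 against 32.1 in the others), and SQ replicate 3 was low in E2F1 (11.9 against 13.7 to 13.9). Calls of the first 4 genes in brain over subcutaneous tumours were kept without any single library.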

How the results depend on the processing

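In brain over subcutaneous tumours the 39 higher genes were kept in all 20 settings (the reported one included), and E2F1 was called higher too with voom, without FBMet replicate 2 (0.0496) and without HBMet replicate 2. In subcutaneous tumours over monolayer the 39 lower genes were kept in all 16. In brain over monolayer both higher genes and 13 of the 21 lower ones were kept in all 19. There AURKA kept its call in 7 and AURKB in 9 of the 19. CDCA8, CCNB2, MCM4 and TYMS lost theirs without any 1 of the 3 monolayer libraries (adjusted p 0.0546 to 0.104), UBE2C without monolayer replicate 2 (0.0585) and TOP2A without monolayer replicate 1 (0.0540). MCM4 and TYMS also lost theirs with no filter (0.0635 and 0.0805), TYMS without FBMet replicate 2 (0.0509), and MCM4 and CDCA8 with scaling to nuclear genes (0.0514 and 0.0508). MKI67 gained a call with voom (0.0495) and with metastases averaged by number (0.0279) and without HBMet replicate 3 (0.00799), PCNA without FBMet replicate 3 (0.0328), CCNA2 with voom (0.0313) and median-of-ratios scaling (0.0482), E2F1 with that scaling (0.0362) and without FBMet replicate 3 or HBMet replicate 1 (0.0404 and 0.0353), and MCM5 with that scaling (0.0401) and without HBMet replicate 3 (0.0478). Replicate numbers are shared across groups, and the labels do not say whether forebrain and hindbrain metastases of 1 number came from 1 animal. Residuals of such libraries correlated by 0.04 to 0.07, all above those across other numbers (-0.06 to 0.01). These low values do not settle whether they are pairs. The reported fit did not treat them as pairs, so the 6 brain libraries may come from fewer animals. With the number as a replicate block, 18 genes of the set were lower in brain over monolayer (AURKA, AURKB and CDCA8 were lost, adjusted p 0.0633, 0.0681 and 0.0529), and 295 genes of all those tested differed between forebrain and hindbrain metastases. That count was 481 without the block, 204 with no filter, 30 with only the groups compared, 100 with voom and 297 to 734 with 1 library left out, and genes of the set called lower there ranged from 0 to 1. The cause was not tested. The mitotic minus replication median of log2 changes ranged from 0.00671 to 0.118 in brain over subcutaneous tumours and from -0.137 to -0.029 in forebrain over hindbrain metastases with 1 library left out. With the G1/S genes added to the replication class it was 0.10 in subcutaneous tumours over monolayer. No called gene of the set changed sign in any setting. Among genes not called, the change took both signs in 14 between forebrain and hindbrain metastases and in 4 in brain over monolayer (CCNE2, CDK1, KIF11 and PLK1). Depth was least in brain metastases, where CENPA had 101 reads in 1 library, the fewest of any gene of the set.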

Other observations

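Host cells were read from the mouse genes with the same names as the 40 human genes, in mouse RPKM rescaled in the same way. Their median level was 18.2 in subcutaneous tumours, 2.91 in forebrain and 2.02 in hindbrain with metastases, and 1.27 in tumour-free forebrain and 0.969 in tumour-free hindbrain. Mki67 stood at 36.6 ± 7.12 in subcutaneous tumours (SD, n = 4), 3.46 ± 0.72 in forebrain and 2.21 ± 0.31 in hindbrain with metastases (n = 3 each), and 0.646 ± 0.046 and 0.276 ± 0.096 in tumour-free forebrain and hindbrain (n = 4 each). Of the 40 mouse genes, 39 had a higher mean in subcutaneous tumours than in both brain regions with metastases, whereas all 40 human genes had a higher mean in brain, and Ccne2 was the exception among the mouse genes. The host tissues also differed in cell type markers, each list having 3 genes. Fibroblast markers summed to 21141 to 43503 in subcutaneous tumours, 44.3 to 77.8 in forebrain and 83.0 to 137 in hindbrain with metastases, and microglia and macrophage markers to 340.0 to 526, 143 to 204 and 85.5 to 113. Neuron markers summed to 1.84 to 14.1 in subcutaneous tumours, 1659 to 2036 in forebrain and 1390.5 to 1533 in hindbrain with metastases. In tumour-free brain the microglia and macrophage markers summed to 63.8 to 73.6 in forebrain and 40.9 to 56.1 in hindbrain. The part of cell composition in the host values was not tested. Between tumour-bearing and tumour-free brain, 36 of 40 had a higher mean in forebrain with metastases and 38 of 40 in hindbrain with metastases. The share of all mouse genes that differed in these directions is not given here, so the counts cannot be read as particular to these 40 genes. These mouse values were not tested, and human reads counted as mouse ones were not measured here for these genes.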
